A study of Neodesmus pupukensis with 4 samples.

Results

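The late step of a microalgal shake-flask culture was described by setting the 88 h library against the 57 h library, sequence by sequence. The alga, strain UTEX2341, is listed as Neodesmus pupukensis in the sample labels and as Chlorella minutissima in the design text. Cells were grown in fed-batch flasks on an orbital shaker, harvested by centrifugation and frozen, and total RNA was sequenced. The late groups were the cultures harvested at 88 h and at 57 h, and the 45 h and 14 h cultures served only to place the late step in the time course. Each time has 1 library. In the labels the groups differ in culture time alone, and no genotype or added agent is given. The sources used here do not say whether the harvests shared a flask. A sequence is 1 of 14905 assembled transcript sequences that the files list for every library. It entered the comparison when its mean over the 88 h and 57 h libraries was at least 50 reads. This left 10127 sequences from 4540 of 6216 components, where a component groups sequences whose identifiers begin alike, as an assembler does for related transcripts.

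Green microalgae in a flask divide until light or a nutrient becomes short, after which division slows. Many species then lower the machinery of growth and photosynthesis and store carbon as starch or as triacylglycerol, the neutral lipid held in oil droplets. UTEX2341 is studied for this storage of lipid. The labels give the same wording on lipid content for all 4 libraries, and they do not say in which growth phase the 57 h and 88 h cells were. The files pair no identifier with a gene name, so no pathway, marker or lipid enzyme could be scored, and the labelled organism could not be checked against marker genes. Sequences are described by their level, length, component and course over the 4 libraries.

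The compared libraries were of like depth. The 88 h library had a stated total of 12077745 reads and the 57 h library one of 12130407 reads. The entering sequences held 99.39% and 99.4% of the reads counted on sequences in these libraries. Counts summed over sequences exceeded the stated totals, by a factor of 1.27 at 88 h and 1.29 at 57 h. The files do not say whether a read could be counted on several sequences. With 1 library per time, differences could not be checked against replicates, and p-values are not given. RPKM, the reads of a sequence per 1000 bases of its length and per 1000000 reads of the library, is a share of the RNA, so a change in the number of cells of a kind and a change in RNA per cell cannot be told apart.

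Most transcripts kept nearly the same level from 57 h to 88 h. The log2 ratio of RPKM, 88 h over 57 h with 0.5 read added to each count, had a median of -0.07, which is 0.952-fold. Its quartiles were -0.25 and 0.13, and its 5th and 95th percentiles were -0.50 and 0.54. Of the 10127 sequences, 6291 (62.1%) lay within 1.2-fold, 9401 (92.8%) within 1.5-fold and 9981 (98.6%) within 2-fold. For the same sequences, the log2 ratio of 57 h over 45 h had quartiles of -1.44 and 0.38, and 2908 (28.7%) lay within 1.5-fold. The late step spans 31 h and the step before it 12 h.

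**Figure D1:**
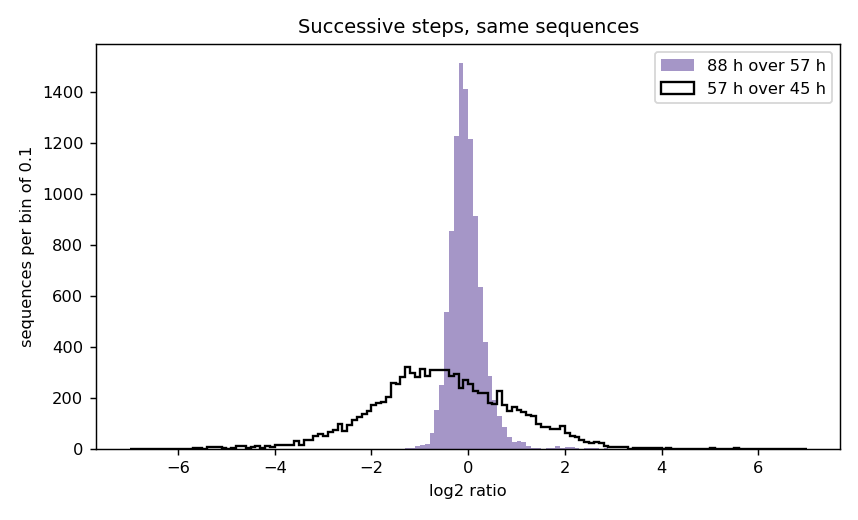
Number of sequences (vertical axis, bins of 0.1) by log2 ratio of RPKM (horizontal axis) for 88 h over 57 h (filled) and 57 h over 45 h (line), in the same 10127 sequences. The late step forms a narrow peak with a median of -0.07, and the step before it is broad with a median of -0.58.

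The libraries differed by more than counting error, in each abundance range examined. The counting error of a log2 ratio follows from the reads behind it, and the spread is the interquartile range scaled to match an SD. Over all entering sequences the spread was 0.28, against a median counting error of 0.12. Among 1888 sequences with a mean of 50 to 100 reads, the spread was 0.38 and the counting error 0.24. Among 808 sequences with 3000 reads or more, the spread was 0.26 and the counting error 0.03, a ratio of 9.61. With abundance the counting error thus shrank far more than the spread. How much of it comes from separate harvests, RNA extractions or library preparations was not tested, since no time has a second library.

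On the deposited scale, small shifts were common and leaned downward. The exact 95% counting interval of the log2 ratio lay wholly above 0 for 1690 sequences (16.7%) and wholly below 0 for 2858 (28.2%). Counting error alone would place up to 5% of unchanged sequences outside such an interval. Among the sequences with such intervals, 1257 higher and 2566 lower ones shifted by less than 1.5-fold, with median changes of 1.23-fold and 0.812-fold. They were well-read sequences, with median means of 687.5 and 819.8 reads. That follows in part from the choice, since a small shift leaves its counting interval off 0 only where reads are many. A shift of 1.2-fold or more with the same interval was met by 1174 higher (11.6%) and 1845 lower (18.2%) sequences. At least part of the downward lean followed the scale. When the single sequence with the largest gain was left out of both library totals, a step added after seeing the data, the median log2 ratio moved to -0.02. TMM scaling, which aims to place the typical sequence at no change, put the median at 0.0. The counts of small shifts are given on the deposited scale only.

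Larger shifts leaned upward. A sequence was called when it differed by 1.5-fold or more and its 95% counting interval did not include 0 on the log2 scale, and only called sequences are said here to rise or fall. By that rule 433 sequences (4.28%) from 282 components were higher at 88 h than at 57 h, and 292 (2.88%) from 172 components were lower. With 2-fold or more, 130 sequences (1.28%) were higher and 16 (0.158%) were lower. With 3-fold or more, 53 (0.523%) were higher and 0 lower. At least 8-fold was reached by 2 sequences, both higher. For comparison, on the deposited scale 2010 sequences (18.2%) rose and 6080 (55.2%) fell at 57 h against 45 h under the 1.5-fold rule, among 11015 sequences over the same floor in those libraries. With TMM scaling 158 fell and 564 rose at 88 h. At 57 h against 45 h TMM turned the balance over, with 3706 of the 10127 entering sequences higher and 2941 lower. Risers made up 78.1% of all calls with TMM and 59.7% with the deposited totals.

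**Figure D2:**
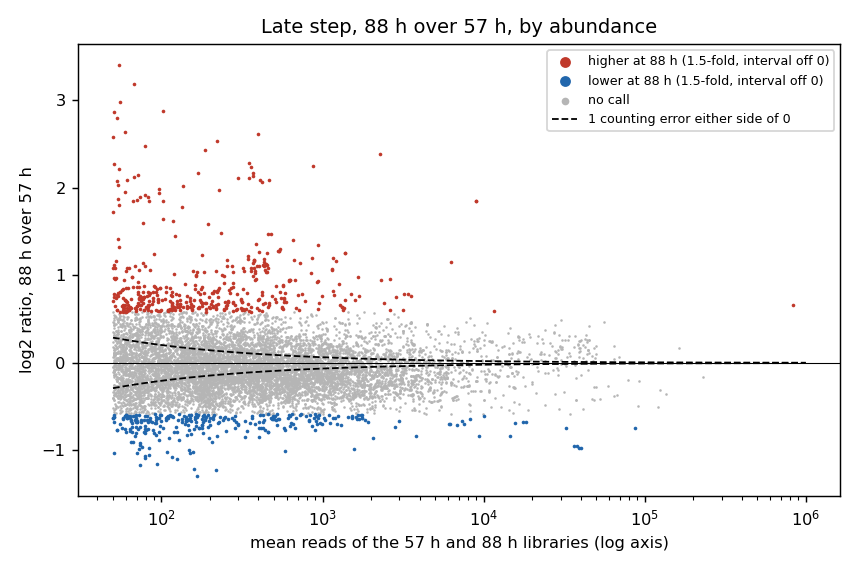
Log2 ratio of RPKM, 88 h over 57 h (vertical axis), by the mean reads of both libraries (horizontal log axis), 1 point per sequence. Red points (433) are higher and blue points (292) lower by 1.5-fold or more with a 95% counting interval off 0, grey points have no call, and dashed lines mark 1 counting error on either side of 0. The red points reach far above 2 on the log2 scale, while the lowest blue points stay above -1.5.

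On the deposited scale the rising sequences had their lowest median level at 57 h. The median RPKM of the 433 was 9.39 (14 h), 13.5 (45 h), 5.53 (57 h) and 10.8 (88 h). The 57 h library was the lowest of the 4 for 228 of them, which is 52.7%, and the 88 h library was the highest for 217. These sequences were chosen for a low 57 h value relative to 88 h, so that the lowest library is often 57 h follows in part from the choice. Their median log2 ratio of 57 h over 45 h was -0.99, against -0.58 over all entering sequences. The 292 falling sequences had a median RPKM of 9.95 (14 h), 9.33 (45 h), 12.1 (57 h) and 6.92 (88 h). The 57 h library was the highest for 149 of them and the 88 h library the lowest for 150. With TMM scaling, added after seeing the data, the 88 h library was the highest for 326 of 564 risers and the lowest for 54 of 158 fallers.

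**Figure D3:**
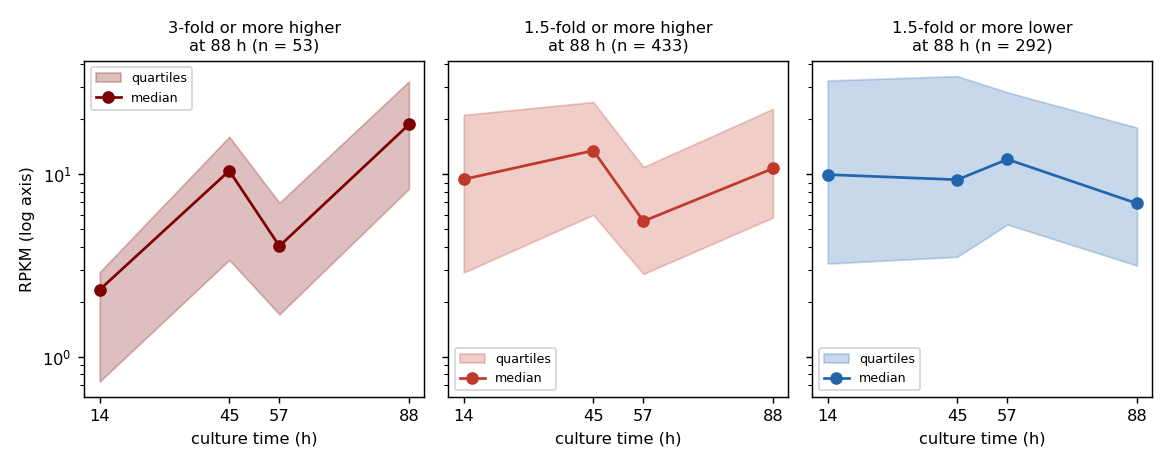
RPKM (vertical log axis) over culture time in hours (horizontal axis) for the sequences 3-fold or more higher (left, n = 53), 1.5-fold or more higher (middle, n = 433) and 1.5-fold or more lower (right, n = 292) at 88 h against 57 h. Points are medians and shaded bands span the quartiles over sequences. The left set has medians of 2.33, 10.4, 4.04 and 18.7 RPKM from 14 h to 88 h.

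Nearly all rises of 3-fold or more belonged to sequences that were also higher at 45 h than at 14 h. They had a median length of 1300 bases, against 2530 bases over all entering sequences. Among the 53 sequences from 23 components that rose 3-fold or more, the median RPKM was 2.33 (14 h), 10.4 (45 h), 4.04 (57 h) and 18.7 (88 h). At 88 h they ranged from 1.97 to 554.9 RPKM, against a median of 11.4 RPKM over all entering sequences. The 88 h library was the highest of the 4 for 52 of the 53. The call at 45 h against 14 h, which uses neither late library, was higher for 52 of them, whereas 1810 of the 10127 entering sequences (17.9%) had that call. A set of 43 passed the 1.5-fold rule in alternating directions, higher at 45 h, lower at 57 h and higher at 88 h. That alternation depended on the scale: with TMM 19 of 53 passed it, while the 88 h library was again the highest for 52 and the call at 45 h again higher for 52. A single component contributed 28 of the 53, and 19 were alone in their component.

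Of the rises of 3-fold or more, 19 were alone in their component. Their log2 ratio of 88 h over 57 h ran from 1.59 to 3.41, that of 57 h over 45 h from -2.19 to 0.14 and that of 45 h over 14 h from -0.92 to 4.04. On the deposited scale 17 of them alternated in direction, a subset singled out after its values were seen, so the signs of its steps are given by the choice. Lengths in this subset spanned 359 to 2929 bases (median 635). Their median reads were 24 (14 h), 121 (45 h), 58 (57 h) and 276 (88 h). Their median log2 ratio was 2.24 at 88 h over 57 h. Over all 19, the 88 h level on the deposited scale stood above the 45 h level by a log2 ratio of 0.65 to 1.73.

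The sequences whose counting interval lay farthest above no change were comp6827_c0_seq1 and comp7249_c0_seq1. The first, of 442 bases and alone in its component, had 5 reads (14 h), 42 (45 h), 9 (57 h) and 100 (88 h). The matching RPKM values were 0.905, 8.0, 1.68 and 18.7. The 88 h library was thus the highest and the 14 h library the lowest. For 88 h over 57 h the log2 ratio came to 3.41, and its 95% counting interval reached from 2.5 to 4.65. The second, of 464 bases and also alone, had 13, 82, 24 and 179 reads from 14 h to 88 h. Here the RPKM values were 2.24, 14.9, 4.26 and 31.9. Its log2 ratio of 88 h over 57 h was 2.88 (2.29 to 3.58). Both rested on few reads at 57 h, and their intervals overlapped, so they have no order. Against 45 h, their 88 h levels differed by log2 ratios of 1.22 (0.69 to 1.78) for comp6827_c0_seq1 and 1.10 (0.72 to 1.5) for comp7249_c0_seq1. With TMM these ratios were 1.99 (1.46 to 2.55) and 1.87 (1.49 to 2.27), so their size depended on the scale.

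In the pair of components with the most risers, nearly all entering sequences rose. Whether reads were counted on more than 1 sequence of a component is not stated, so its members cannot be taken as independent. The component with the most risers had 36 entering sequences of 95 listed, and 35 of them rose. Their median reads were 20 (14 h), 66 (45 h), 33 (57 h) and 110 (88 h), and their log2 ratios of 88 h over 57 h ran from 0.97 to 2.98. A second component, with 25 entering sequences of 26 listed, had 24 risers of 6736 to 7415 bases. Its course differed from that of the first: median reads of the risers were 78 (14 h), 154 (45 h), 256.5 (57 h) and 576 (88 h), higher at each later time. These risers differed little from one another, with log2 ratios of 0.99 to 1.36. The component with the most fallers had 16 entering sequences, of which 9 fell. The fallers had median reads of 45 (14 h), 116 (45 h), 836 (57 h) and 501 (88 h).

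No component held both a riser and a faller. Of 2034 components with several entering sequences, 219 held a called sequence. In 45 of these all entering sequences rose, in 29 all fell, and in 145 only some were called. Over all 2034 the log2 ratio had a median SD within a component of 0.0373, while its SD over all entering sequences was 0.355. The median counting error was 0.10 to 0.17 for sequences from components with several listed sequences. Members of a component thus typically differed by less than counting error, so their counts cannot be taken as independent. Their agreement is in part given by this, and sharing of reads was not tested. Counted in whole components rather than sequences, 239 of 4711 with summed counts rose and 124 fell. Sequences alone in their component were 23.7% of those entering, 38.1% of the risers and 20.5% of the fallers.

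The sequences with the lowest interval were comp302_c0_seq1 and comp2395_c0_seq5, which differ widely in abundance. The first, of 5577 bases in a component of 5, had 44269 reads (14 h), 45631 (45 h), 53492 (57 h) and 27221 (88 h). The matching RPKM values were 635.3, 689.0, 790.7 and 404.1. Its log2 ratio of 57 h over 45 h, 0.20 as deposited, became 0.90 under TMM, which passes the 1.5-fold rule. On the deposited scale the 88 h library was the lowest of the 4, whereas with TMM its 88 h and 45 h levels differed by 0.0 (-0.02 to 0.02). Its log2 ratio of 88 h over 57 h was -0.97 (-0.99 to -0.95), or 0.511-fold. The second, of 1173 bases in a component of 6, had 583, 479, 236 and 96 reads from 14 h to 88 h. Its level was lower at each later time, with log2 ratios of -0.21 (-0.39 to -0.03) at 45 h over 14 h, -1.05 (-1.28 to -0.82) at 57 h over 45 h and -1.29 (-1.65 to -0.94) at 88 h over 57 h. The steps at 57 h and 88 h met the 1.5-fold rule on the deposited scale, but with TMM the step at 57 h, at -0.35, did not.

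By count, more late shifts reversed the preceding change than continued it. The same 10127 sequences were called at 57 h over 45 h by the same rule, which gave 2154 higher (21.3%) and 5051 lower (49.9%), against 3706 higher and 2941 lower with TMM. Of the 725 sequences called at 88 h, 382 moved against their call at 57 h, 153 moved with it and 190 had no call at 57 h. Both steps use the 57 h library, in which a chance excess or deficit of reads pushes the steps to opposite signs. On the deposited scale more sequences fell than rose at 57 h, while at 88 h 433 rose and 292 fell. That balance by itself gives more reversals than continued shifts, even where the steps are unrelated. The size of these parts was not tested. With TMM scaling, under which the median of 57 h over 45 h was 0.12 rather than -0.58, 355 reversed and 178 continued. Among shifts of 2-fold or more at 88 h the excess of reversals was absent with TMM. There 48 risers and 3 fallers reversed their 57 h call, kept at 1.5-fold, while 49 risers and 2 fallers continued it. On the deposited scale the same rule gave 66 risers and 6 fallers that reversed. Those that continued were 27 risers and 5 fallers. The counts describe these libraries.

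Among the sequences called at 88 h, the most frequent course was a fall at 57 h followed by a rise at 88 h. It held for 257 sequences from 174 components, which are 59.4% of the risers and 5.09% of the 5051 sequences that had fallen. Over all entering sequences 49.9% had fallen and 4.28% rose, so 5.09% stood close to the share over all. Their median log2 ratio was -2.0 at 57 h over 45 h and 0.77 at 88 h over 57 h. On the deposited scale the late rise took back a median of 38.4% of the earlier fall, in log2 terms. This share was not computed with TMM, which moved the median of 57 h over 45 h from -0.58 to 0.12. At 88 h, 168 of the 257 were still lower than at 45 h by the 1.5-fold rule, 46 had no call against 45 h and 43 were higher. With TMM the course held for 253 sequences, of which 173 were lower than at 45 h, 62 had no call and 18 were higher. The share of risers was larger after a deep fall, measured from the same 57 h library. Of 385 sequences with a log2 ratio below -3 at 57 h over 45 h, 69 rose at 88 h and 2 fell, with a median log2 ratio of 0.23. Of 2922 sequences with a ratio from -1 to 0, 101 rose and 72 fell, with a median of -0.10.

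A rise at 57 h followed by a fall at 88 h held for 125 sequences from 68 components. They are 42.8% of the fallers and 5.8% of the 2154 sequences that had risen. Over all entering sequences 21.3% had risen and 2.88% fell. Their median log2 ratio was 1.85 at 57 h over 45 h and -0.68 at 88 h over 57 h. At 88 h, 82 of the 125 were still higher than at 45 h, 43 had no call against 45 h and 0 were lower. With TMM the course held for 102 sequences, of which 74 were higher than at 45 h, 28 had no call and 0 were lower. Of 303 sequences with a log2 ratio from 2 to 3 at 57 h over 45 h, 8 rose and 41 fell at 88 h, and the median was -0.24. Of the 55 with a ratio of 3 or more, 2 rose and 7 fell, with a median of -0.06. With TMM, sequences with a ratio of 2 or more at 57 h over 45 h numbered 993, of which 34 rose and 48 fell.

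**Figure D4:**
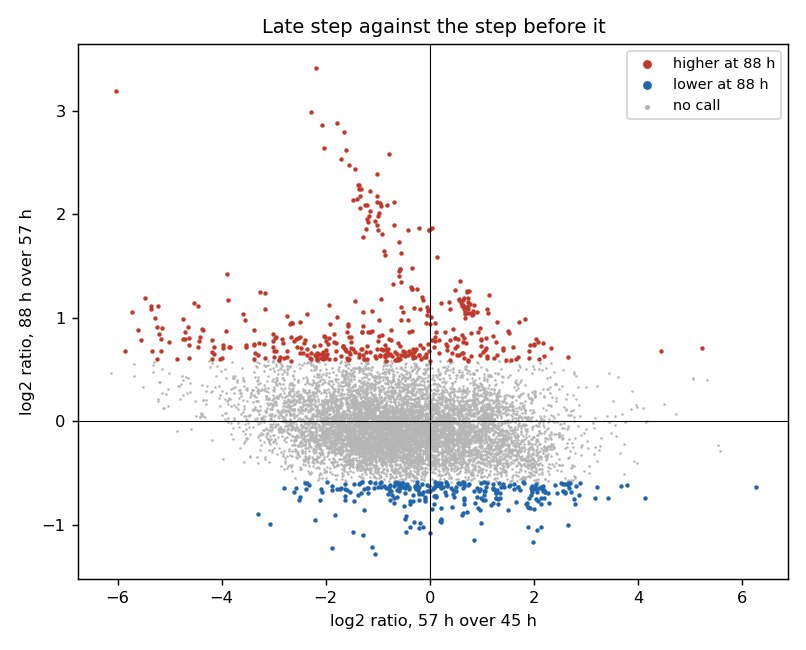
Log2 ratio of RPKM for 88 h over 57 h (vertical axis) against that for 57 h over 45 h (horizontal axis), 1 point per sequence, with risers in red, fallers in blue and sequences without a call in grey. The axes share the 57 h library. The upper left quadrant holds the 257 sequences called lower and then higher, and the lower right quadrant the 125 called higher and then lower.

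Continued change was less frequent and went in both directions. A rise at both steps was called for 77 sequences from 49 components, with median log2 ratios of 1.01 at 57 h over 45 h and 0.79 at 88 h over 57 h. A fall at both steps was called for 76 sequences from 61 components, with medians of -1.27 and -0.65. With TMM these numbers were 157 and 21, so the balance of the continued courses depended on the scale. A rise at all 3 steps, from 14 h on, was called for 24 sequences from 5 components, and 19 of the 24 rose 2-fold or more at 88 h, all in 1 component. A fall at all 3 steps was called for 16 sequences from 12 components, whose median RPKM was 37.6 (14 h), 19.5 (45 h), 9.63 (57 h) and 6.16 (88 h).

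Sequences that had risen early in the culture, between 14 h and 45 h, had a larger share of late risers. These steps share no library, and the difference in shares was not tested. Of 951 sequences with a log2 ratio of 1 or more at 45 h over 14 h, 188 rose (19.8%) and 46 fell (4.84%) at 88 h over 57 h. Of 3999 with a ratio from 0 to 1, 115 rose (2.88%) and 109 fell (2.73%). Of 4756 with a ratio from -1 to 0, 101 rose (2.12%) and 125 fell (2.63%). Of 421 with a ratio below -1, 29 rose (6.89%) and 12 fell (2.85%). Over all entering sequences 4.28% rose and 2.88% fell. In the order given, the median log2 ratio of 88 h over 57 h in these sets was 0.08, -0.10, -0.07 and 0.01. These medians were small beside the spread of 0.47, 0.27, 0.25 and 0.34 within the sets. The shares count sequences, not components, and the components with the most risers held 35 and 24 of all risers.

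On the deposited scale, the RNA gained at 88 h was concentrated in 1 long sequence. Summed over all sequences, gains came to 104000 and losses to -124400 reads per 1000000 of the stated total. A single sequence of 7253 bases, alone in its component, accounted for 31170 of the gain, or 30.0%. It had 198184 reads (14 h), 410291 (45 h), 648806 (57 h) and 1022442 (88 h). It took 8.47% of the stated total at 88 h (exact binomial interval 8.45 to 8.48%) and 5.35% at 57 h (5.34 to 5.36%). It was the only one of the 10 sequences with the highest RPKM that rose by 1.5-fold or more, at 1.58-fold, which continued a 1.55-fold rise at 57 h. Losses on that scale were more dispersed, with 99 sequences making up the first 50% of the loss, against 32 for the gain. The 10 sequences with the largest loss came from 6 components. Gains and losses were not recomputed with TMM, under which every log2 ratio of 88 h over 57 h is higher. How much of the dispersed loss follows the scale was therefore not tested.

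Of the 10 sequences with the highest mean RPKM at 88 h and 57 h, 1 rose and 1 fell by the 1.5-fold rule. At 88 h, 3 of the 10 were higher and 5 lower than at 57 h beyond counting error. The sequence with the highest RPKM, of 902 bases, had 1345.3 RPKM (14 h), 2281.6 (45 h), 22350.5 (57 h) and 19920.5 (88 h). It remained the first in rank at 88 h, at a log2 ratio to 57 h of -0.17. The second, of 693 bases in a component of 26, was at 8957.6 RPKM in the 88 h and 12556.3 RPKM in the 57 h library, and its log2 ratio was -0.49 (-0.50 to -0.47). Neither met the 1.5-fold rule. The fourth, of 814 bases, did, with 6586.4 RPKM at 88 h and 10983.8 RPKM at 57 h, which is 0.600-fold, after a 2.56-fold rise at 57 h. Its change of -3579 reads per 1000000 of the stated total was the largest single loss. Its 88 h level was still 1.53 times that at 45 h.

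For the other 2 of the top 10 no difference was detectable beyond counting error on the deposited scale. The seventh, of 517 bases, had 7291.1 RPKM at 88 h and 7269.3 at 57 h, and the tenth, of 688 bases, had 5234.5 at both times. Their counting intervals, -0.01 to 0.02 and -0.02 to 0.02 on the log2 scale, included 0. With TMM the intervals were 0.06 to 0.09 and 0.05 to 0.09, wholly above 0. Both were at least 2-fold higher at 57 h than at 45 h, at log2 ratios of 1.28 and 1.06. Of the 100 sequences with the highest mean RPKM at 88 h and 57 h, 2 rose and 3 fell by the 1.5-fold rule, and their median log2 ratio was 0.11, against -0.07 over all entering sequences. Their counting intervals lay above 0 for 62 and below 0 for 29. With TMM every log2 ratio of 88 h over 57 h is higher by 0.07.

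**Figure D5:**
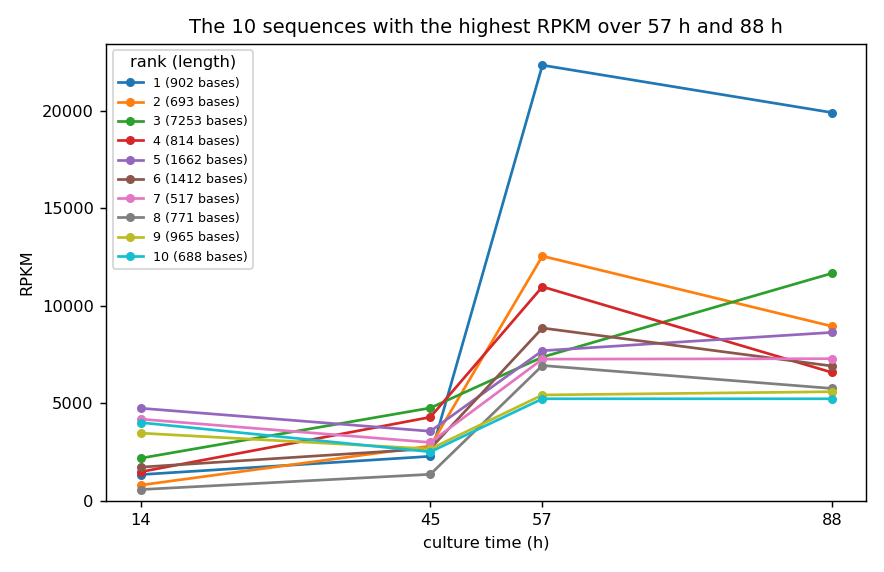
RPKM (vertical axis, from 0) over culture time in hours (horizontal axis) of the 10 sequences with the highest mean RPKM at 88 h and 57 h, 1 line each, labelled by rank and length. The lines spread out after 45 h. The line of the 7253-base sequence stands at 11671.7 at 88 h, against 7374.3 at 57 h, and that of the 814-base sequence at 6586.4 at 88 h, against 10983.8 at 57 h.

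The share of called sequences varied with length and abundance in a way that counting error also does. Among 1240 sequences under 1000 bases, 97 rose (7.82%) and 63 fell (5.08%). Among 1789 of 5000 bases or more, 53 rose (2.96%) and 40 fell (2.24%). Among 1888 sequences with a mean of 50 to 100 reads, 150 rose (7.94%) and 92 fell (4.87%), and among 808 with 3000 reads or more, 9 rose (1.11%) and 19 fell (2.35%). The median counting error was 0.17 for the shortest and 0.11 for the longest of these length groups. The part of counting error in the length pattern was not tested. At the floor itself, 54 sequences with a mean of 50 to under 51 reads had a median log2 ratio of -0.04 with 7 risers and 4 fallers. The 41 sequences just outside, at 49 to under 50 reads, had a median of 0.06, also with 7 and 4.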

How the data were processed

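RNA of 1 library per culture time was analysed from the authors' files. Per the file headers, the deposited values were a raw read count per sequence, a stated library total, the sequence length in bases (another value) and RPKM, which recomputed from the other columns to within 3.8e-11. BWA is named per the submitters' processing notes, while the sources used here give no reference, assembler, filter, strand or treatment of shared reads. The members, tests and lists were chosen with earlier results of these data known.

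The log2 ratio of RPKM was computed with 0.5 read added to each count. Its 95% interval was the exact conditional binomial (Clopper-Pearson) interval, which covers counting error only and is too narrow where reads are copies or shared. Calls were tried on simulated counts that held counting error only. That trial cannot show how the calls behave with variation between harvests or with shared reads. No test between times was possible with 1 library each, and edgeR served for TMM factors only. Identifiers were printed by a rule: among called sequences, the most-read per component, the 2 with the highest lower bound and the 2 with the lowest upper bound. Abundant sequences were given by rank. Other scales, floors, folds, intervals and component sums were tried as alternatives. The 4778 sequences below the floor did not enter. Scaling used edgeR 4.0.16 in R 4.3.3. The rest used scipy 1.17.1, pandas 2.3.3 and numpy 2.4.6 in Python 3.11.15, with matplotlib 3.10.9 for plots.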

Additional observations from a re-analysis of the deposited data

How the results depend on the processing

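Reversed shifts outnumbered continued ones under all 13 alternatives, each changing 1 choice. All of these keep the 57 h library in both steps, so they cannot show how far that sharing gives the excess. With TMM and 2-fold asked of the 88 h step alone, added after seeing the data, 48 risers and 3 fallers reversed. Under that rule, which kept the 57 h call at 1.5-fold, 49 risers and 2 fallers continued. Risers outnumbered fallers at 88 h under all but the 1.2-fold rule. TMM gave 158 fallers and a median log2 ratio of 0.0, and median-of-ratios factors 154 and 0.0, since both centre the typical sequence by construction. The median was -0.05 with summed counts as library size and -0.04 without the 10 most abundant sequences. With no floor there were 650 risers, 495 fallers and 578 reversals, a median of -0.06 and a spread of 0.34. A floor of 10 reads gave 485 fallers and a spread of 0.32. A floor of 200 reads, with fewer sequences, gave 195 risers, 127 fallers, 72 continued and 157 reversed shifts, a median of -0.09 and a spread of 0.25. Applied to both steps, the 2-fold rule gave 130, 16, 8 and 59 in that order, and the 1.2-fold rule 1174, 1845, 1042 and 1513. Component sums gave 239, 124, 84 and 194 with a median of -0.05, and 1 sequence per component 227, 109, 75 and 178 with a median of -0.05, as fewer units enter. The other alternatives kept each count within 1.5 times. No paired analysis was possible because no culture time has a second library, and none could be left out. Depth limits the low end, where the counting error of a log2 ratio was 0.24 at 50 to 100 reads.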

Other observations

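Sequences below the floor were called higher and lower in nearly equal numbers. Among 3375 sequences with a mean of 10 to under 50 reads in the 88 h and 57 h libraries, 197 rose and 193 fell at 88 h. Together these were 11.6% by the 1.5-fold rule, against 433 and 292 of the entering sequences, together 7.16%. Counting error is larger at such low counts, and its part in this difference was not tested. The median log2 ratio of these 3375 sequences was -0.06. Many of the 3375 had been more abundant before: 1756 were lower and 303 higher at 57 h than at 45 h. Of all 4778 sequences below the floor, 1654 had at least 50 reads at 45 h and 1734 at 14 h.

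Among the entering sequences none had 0 reads in either library. The lowest counts were 33 reads at 88 h and 9 reads at 57 h.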
